A study of Homo sapiens with 18 samples.

Results

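Expression of 10 genes of WNT signalling (WNT5A, WNT7B, ROR1, ROR2, RYK, FZD2, FZD5, FZD7, AXIN2 and LEF1) was followed through all 18 libraries of OVCAR-3 cells treated with BET bromodomain inhibitors. They were listed by name and found by their Ensembl identifiers, and all 10 were present among the 58825 genes counted. OVCAR-3, an established line from a high-grade serous carcinoma of the ovary, is the only cell model here. Cells received DMSO (the vehicle), 1 µM i-BET858 (a bivalent pan-BET inhibitor) or 1 µM i-BET151 (an earlier BET inhibitor), each for 4 h or for 24 h. Every one of these 6 conditions had 3 biological replicates, and each time point had DMSO libraries of its own. Poly-A RNA was sequenced, and the values are raw read counts per gene, given here as CPM (counts per library total scaled by its TMM factor).

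BET proteins bind acetylated histones and help RNA polymerase II to leave promoters, and BET inhibitors displace them from chromatin. WNT proteins are secreted ligands that bind Frizzled (FZD) receptors. In the canonical branch, a Frizzled with an LRP co-receptor stabilises β-catenin, which joins TCF/LEF factors on DNA and raises targets such as AXIN2. In the non-canonical branch, of which WNT5A is the best known ligand, ROR1, ROR2 and RYK act as receptors or co-receptors and signal to the cytoskeleton and to cell movement without β-catenin. WNT5A, ROR1 and FZD7 have each been studied in ovarian cancer.

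WNT5A was lower and FZD5 higher with both inhibitors at both times. After 4 h WNT5A fell 6.54-fold (i-BET858) and 4.57-fold (i-BET151), and FZD5 rose 4.24-fold and 2.58-fold. FZD7 was higher after 4 h of either inhibitor, and AXIN2 after 4 h of i-BET858. By 24 h FZD7 was near DMSO and AXIN2 was below it with both inhibitors. At 24 h WNT5A was 5.93-fold and 4.19-fold below DMSO, and FZD2, which fell more at 24 h than at 4 h, was 3.03-fold and 2.97-fold below it. A gene was called with an adjusted p under 0.05 in edgeR's quasi-likelihood test (Benjamini-Hochberg over all genes tested). All 10 members passed edgeR's filter on low counts at both times, but ROR2 dropped out of the alternative fits that required at least 10 counts in every library, of the fits of i-BET151 and DMSO alone, and of the fit of the 2 inhibitors alone at 24 h. With i-BET858, 7 of the 10 were called at 4 h and 7 at 24 h, where 30.8% and 41.7% of all tested genes were called. Without DMSO 4 h replicate 1 or 2, ROR1, FZD2 and AXIN2 lost their 4 h calls (23.2% and 23.3% of all tested genes called). With i-BET151 the counts were 3 at 4 h and 4 at 24 h, against 16.2% and 33.8% of all tested genes. With the replicate number added to the fit (the replicate block), i-BET151 also had calls for ROR1, RYK and FZD2 at 4 h. At 24 h the block added WNT7B and ROR1. The shares of all tested genes called with i-BET151 then rose to 32.7% and 45.9%. With a fold change of at least 2 required as well, 3 and 5 members were called with i-BET858 at 4 and 24 h (14.1% and 18.8% of all tested genes) and 2 and 4 with i-BET151 (7.10% and 13.7%). The median log2 fold change of the 10 was 0.41 and −0.82 for i-BET858 at 4 and 24 h (0.02 and −0.01 over all tested genes), and 0.14 and −0.54 for i-BET151 (0.01 and 0.00). Between 4 and 24 h the effect of i-BET858 changed for 4 members, all downwards (27.2% of all tested genes changed, 12.6% downwards), and that of i-BET151 for 1 (13.8%). With the replicate block the i-BET858 effect also changed for RYK, upwards (0.44, adjusted p 0.00518), and for FZD5, downwards (−0.85, 0.00814). The i-BET151 effect then also changed for WNT7B, RYK, FZD7 and AXIN2. Both inhibitors were compared with the same 3 DMSO libraries at each time, so the comparisons of one time are not independent of each other.

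**Figure D1:**
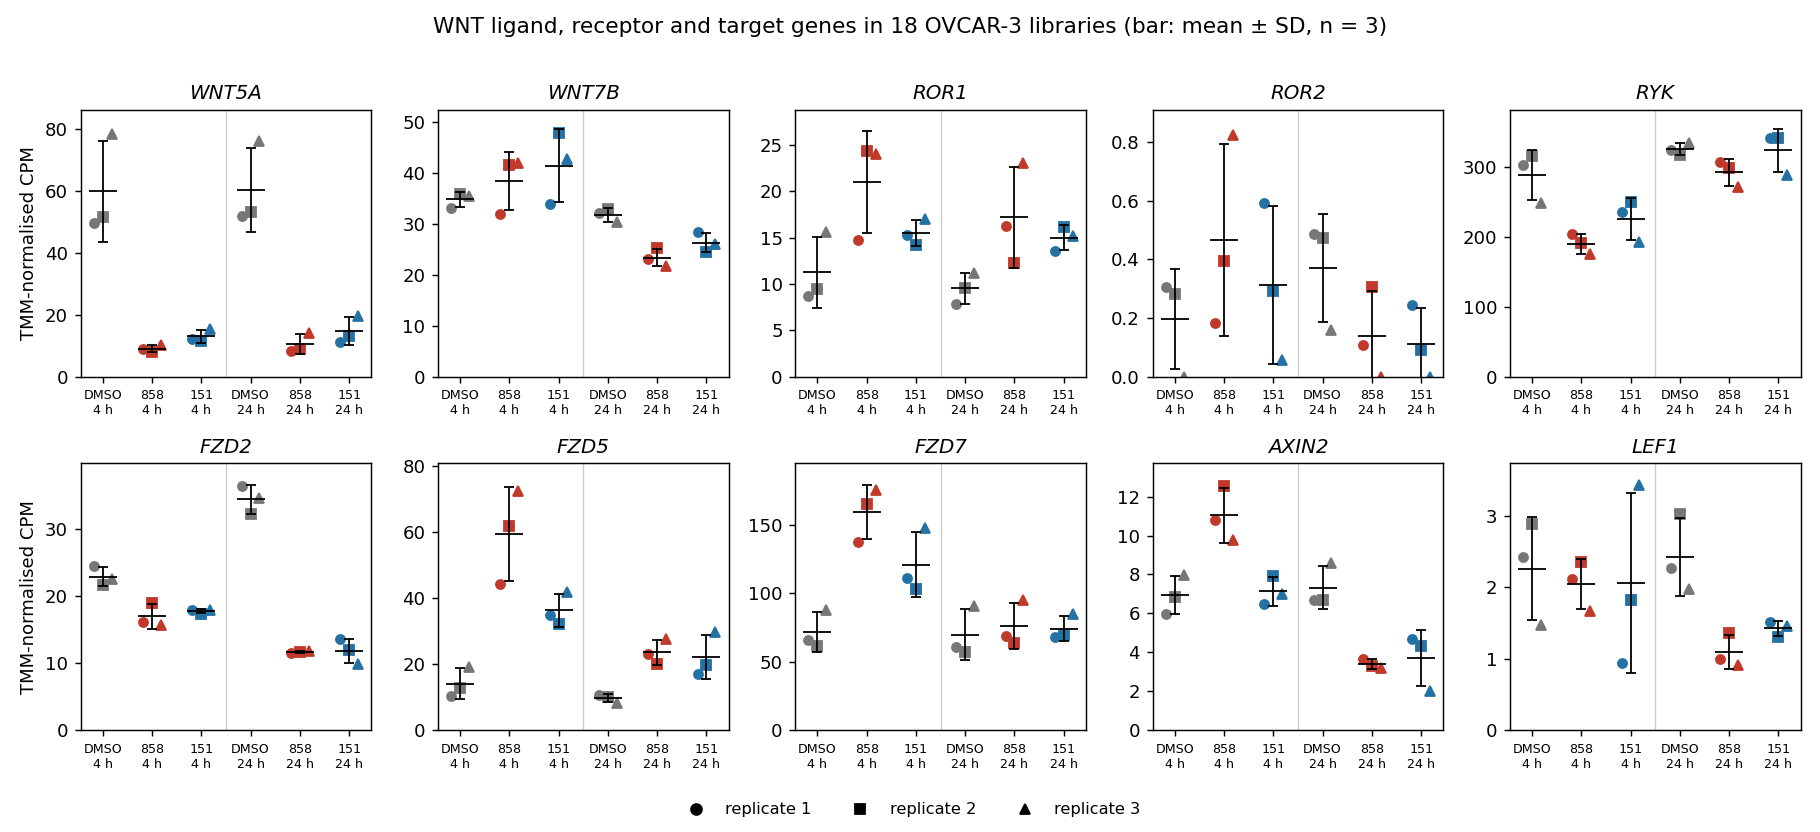
TMM-normalised CPM (vertical axis, from 0, a scale for each gene) of the 10 genes in the 18 libraries, by condition; symbols are single libraries by replicate number, black bars the mean ± SD of 3 replicates. The WNT5A libraries of both inhibitors lie between 8.07 and 19.8 CPM, below the lowest DMSO library at 49.5 CPM, and the FZD5 libraries of both inhibitors lie above all DMSO libraries of their time.

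Library totals ran from 27323969 to 46299994 counts (median 32267434). Libraries of replicate 3 stood apart in every condition: they had counts on 17817 to 20642 genes, against 23674 to 24947 in replicates 1 and 2. Libraries with the same replicate number also deviated together, so results whose call changed when the replicate number was added to the fit are given with that value. The labelled cell type was checked with marker lists. Of 12 markers of serous ovarian epithelium 11 averaged at least 1 CPM, led by KRT8 at 5369 CPM, and ESR1 stood at 0.435 CPM. Of 6 fibroblast genes only COL1A1 passed that level (30.2 CPM), none of 5 leukocyte genes did, and of 4 endothelial genes KDR (3.06 CPM) and VWF (2.70) did. Summed epithelial markers were 8808 to 10226 CPM with DMSO at 4 h, 11808 to 12307 with i-BET858 and 9923 to 10458 with i-BET151. At 24 h they were 8857 to 10321 with DMSO, 7192 to 7488 with i-BET858 and 7114 to 7580 with i-BET151. The summed 4 endothelial genes reached 9.23 to 15.9 CPM with i-BET858 and 4.58 to 12.4 CPM with i-BET151 at 4 h (3.37 to 6.63 with DMSO), and 2.17 to 3.45 and 1.73 to 5.76 CPM at 24 h (3.66 to 7.04 with DMSO), while summed leukocyte genes never passed 1.97 CPM. What these shifts contribute to the WNT genes was not tested. In RNA from whole cultures, fewer cells of one kind and less RNA per cell cannot be told apart.

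WNT5A (ENSG00000114251, minus strand, chr3:55465715-55490539 on GRCh38) and FZD5 (ENSG00000163251, minus strand, chr2:207762598-207769906) moved most at 4 h, in opposite directions, and their promoters are shown for that reason. The windows are the 250 bases before a RefSeq transcription start (GRCh38.p14), 5′ to 3′ on the minus strand. For WNT5A there are 2 starts, both inside the span of the gene. Capitals mark GC boxes (GGGCGG or its reverse complement CCGCCC).

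WNT5A, upstream start, chr3:55487307-55487556: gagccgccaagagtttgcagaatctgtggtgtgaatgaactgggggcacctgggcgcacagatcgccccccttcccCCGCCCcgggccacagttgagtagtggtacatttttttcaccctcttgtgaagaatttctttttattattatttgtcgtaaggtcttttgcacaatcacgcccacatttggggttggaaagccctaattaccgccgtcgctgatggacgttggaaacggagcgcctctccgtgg
WNT5A, downstream start, chr3:55481399-55481648: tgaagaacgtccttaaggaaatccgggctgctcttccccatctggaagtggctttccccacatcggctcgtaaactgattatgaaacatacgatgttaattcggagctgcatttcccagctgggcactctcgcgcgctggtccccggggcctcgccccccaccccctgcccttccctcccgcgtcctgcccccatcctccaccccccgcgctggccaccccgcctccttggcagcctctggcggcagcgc
FZD5, chr2:207769907-207770156: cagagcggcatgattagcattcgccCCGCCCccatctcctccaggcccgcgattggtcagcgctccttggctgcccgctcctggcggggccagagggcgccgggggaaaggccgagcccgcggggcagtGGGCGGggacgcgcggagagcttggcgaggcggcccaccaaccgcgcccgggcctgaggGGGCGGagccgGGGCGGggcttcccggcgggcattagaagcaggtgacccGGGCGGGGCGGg

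The FZD5 window held 6 GC boxes, of which the pair nearest the start share a base, and its GC content was 76.8%. The upstream WNT5A window held 1 GC box at a GC content of 52.8%, and the downstream window held none at 64.4%. The median GC content over the 35116 promoter windows of the table was 58.0%, and 42.6% of them held a GC box on either strand. The motif CTTTGA (the core bound by TCF/LEF factors) occurred in 11.2% of the windows, TATAAA in 10.7%, CACGTG (an E-box) in 6.34% and TGACTCA (bound by AP-1) in 4.20%, all on both strands. None of these 4 was found in the 7 windows available for WNT5A, ROR1, ROR2, RYK, FZD5 and LEF1, which says only that these letters are not in those 250 bases. Of these, ROR2 held 4 GC boxes, RYK 2 and LEF1 2, and ROR1 none.

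Before treatment effects, the levels set the scale of each gene. Per kb of exon, the 6 DMSO libraries had the order RYK, FZD7, WNT5A, FZD2, WNT7B, FZD5, ROR1, AXIN2, LEF1 and ROR2. RYK averaged 37.7 CPM per kb and FZD7 15.4, and each was above the next gene in 6 of 6 libraries. WNT5A (8.41 CPM per kb), FZD2 (7.58) and WNT7B (6.57) came next. WNT5A was above FZD2 in 4 and FZD2 above WNT7B in 3 of 6 libraries, and the place of FZD2 differed by time. With DMSO at 4 h FZD2 (5.72 to 6.47 CPM per kb) lay below all libraries of WNT7B (6.54 to 7.06) and of WNT5A (from 6.92). With DMSO at 24 h FZD2 (8.52 to 9.65 CPM per kb) lay above all libraries of WNT7B (5.99 to 6.51) and overlapped WNT5A. FZD5 (1.69 CPM per kb), ROR1 (1.55) and AXIN2 (1.37) formed a lower group, with FZD5 above ROR1 and ROR1 above AXIN2 in 5 of 6 libraries each. LEF1 (0.44 CPM per kb) and ROR2 (0.05) were the lowest. After 4 h of i-BET858 the order was FZD7, RYK, FZD5, WNT7B, FZD2, ROR1, AXIN2, WNT5A, LEF1 and ROR2, so that WNT5A had moved from rank 3 with DMSO to rank 8.

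Among the ligands, WNT5A was read at 49.5, 51.5 and 78.6 CPM in DMSO replicates 1 to 3 at 4 h. It was read at 8.90, 8.07 and 10.4 CPM with i-BET858 and at 12.1, 11.7 and 15.5 CPM with i-BET151. Replicate 3 was the highest library of each condition, and neither inhibitor's libraries overlapped those of DMSO. In log2 terms the change was −2.71 ± 0.20 (SE, n = 3 against 3, adjusted p 6.12e-06) with i-BET858 and −2.19 ± 0.20 (6.19e-05) with i-BET151.

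In the 24 h libraries WNT5A stood at 51.9, 53.2 and 76.1 CPM with DMSO, at 8.47, 8.89 and 14.2 CPM with i-BET858 and at 11.2, 13.1 and 19.8 CPM with i-BET151. The treated and DMSO libraries again did not overlap, with log2 fold changes of −2.57 ± 0.26 (adjusted p 3.99e-05) and −2.07 ± 0.26 (0.000232). No change of the effect from 4 to 24 h was detected: the drug-by-time difference was 0.19 (95% interval −0.54 to 0.92) with i-BET858 and 0.15 (−0.58 to 0.87) with i-BET151. Among the 19 WNT ligand genes, WNT5A made up 14.05% ± 3.61 (SD, n = 3) of the summed CPM per kb with DMSO at 4 h, 2.14% ± 0.45 with i-BET858 and 4.07% ± 0.97 with i-BET151. At 24 h these shares were 18.1% ± 7.15, 4.05% ± 1.60 and 7.55% ± 3.55.

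WNT7B (ENSG00000188064, chr22:45920366-45977162) encodes a ligand that can signal through β-catenin. At 4 h it was read at 33.2, 35.9 and 35.6 CPM with DMSO, 32.0, 41.6 and 42.1 CPM with i-BET858 and 33.9, 47.9 and 42.7 CPM with i-BET151. The groups overlapped, and the log2 fold changes were 0.15 ± 0.16 and 0.25 ± 0.16, with no call. By 24 h DMSO libraries held 32.1, 33.1 and 30.4 CPM, and those of i-BET858 held 23.1, 25.3 and 21.8 CPM, a fall of 0.48 ± 0.11 on the log2 scale (adjusted p 0.00488). With i-BET151 the libraries held 28.4, 24.6 and 26.1 CPM, all below DMSO, with a log2 fold change of −0.29 ± 0.11 (adjusted p 0.0613, and 0.0138 to 0.0493 with the replicate block, DESeq2, DESeq2 size factors, at least 10 counts in every library or replicates 1 and 2 alone). The change of the i-BET858 effect from 4 to 24 h was −0.59 ± 0.19 (adjusted p 0.0291). That call was lost without a filter on low counts (0.120), with replicates 1 and 2 alone (0.0765), and without DMSO 4 h replicate 1 (0.0699), DMSO 24 h replicate 1 (0.0577) or 2 (0.0686), i-BET858 4 h replicate 2 (0.0607) or 3 (0.0561), or i-BET858 24 h replicate 1 (0.0622) or 3 (0.0687). For i-BET151 the change was −0.52 (0.0793, and 0.0321 to 0.0360 with the replicate block, DESeq2 or at least 10 counts in every library), and without i-BET151 4 h replicate 1 it was −0.65 (0.0382).

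ROR1 (ENSG00000185483, chr1:63774017-64181498), a receptor for WNT5A of the receptor tyrosine kinase-like orphan family, was read at 8.66, 9.45 and 15.6 CPM with DMSO at 4 h. With i-BET858 it was read at 14.7, 24.3 and 24.0 CPM. Replicate 1 of i-BET858 lay below replicate 3 of DMSO, and the log2 fold change was 0.91 ± 0.25 (adjusted p 0.0188). Without DMSO 4 h replicate 1 or 2, or i-BET858 4 h replicate 2 or 3, the adjusted p was 0.0849, 0.0809, 0.0725 and 0.0503. With i-BET151 at 4 h ROR1 was read at 15.3, 14.2 and 17.0 CPM, with a log2 fold change of 0.46 ± 0.25 (adjusted p 0.260, 0.0405 with the replicate block and 0.0383 with replicates 1 and 2 alone). After 24 h, DMSO libraries held 7.87, 9.56 and 11.1 CPM, below all libraries of i-BET858 (16.2, 12.2 and 23.0 CPM) and of i-BET151 (13.5, 16.2 and 15.2 CPM). On the log2 scale these differences were 0.81 ± 0.23 (adjusted p 0.0147, and 0.0586 without DMSO 24 h replicate 1) and 0.63 ± 0.23 (0.0546, and 0.00792 with the replicate block). For i-BET151 at 24 h ROR1 also passed the threshold with DESeq2 (0.0409), without a filter on low counts (0.0112), in a fit of only the groups compared (0.0246), under total library size (0.0494) and with replicates 1 and 2 alone (0.00267), and without DMSO 24 h replicate 3 (0.0384) or without i-BET858 24 h replicate 2 (0.0331) or 3 (0.0186).

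ROR2 (ENSG00000169071, chr9:91563091-91950228), the second receptor of that family, was close to the limit of detection, with 0 to 29 counts per library. Its count was 0 in replicate 3 of DMSO at 4 h, of i-BET858 at 24 h and of i-BET151 at 24 h, where a count of 0 allows up to 0.0940, 0.0877 and 0.0873 CPM (3 counts, counting error only). At 4 h the libraries ran from 0 to 0.307 CPM with DMSO, from 0.182 to 0.823 CPM with i-BET858 and from 0.0562 to 0.590 CPM with i-BET151. No difference was detectable at this depth: the 95% interval of the log2 fold change ran from −1.23 to 3.69 with i-BET858 at 4 h and from −4.13 to 1.26 at 24 h.

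RYK (ENSG00000163785, chr3:134065303-134250859), a WNT receptor with an inactive kinase domain, was the most abundant member per kb with DMSO. At 4 h it was read at 304, 316 and 249 CPM with DMSO and at 205, 191 and 176 CPM with i-BET858, with no overlap, a fall of 0.60 ± 0.13 on the log2 scale (adjusted p 0.00512). With i-BET151 it was read at 236, 250 and 192 CPM, with a log2 fold change of −0.36 ± 0.13 (adjusted p 0.0924, 0.00217 with the replicate block, 0.0391 with all 18 libraries in 1 fit and 0.0263 with replicates 1 and 2 alone). By 24 h RYK was read at 318 to 335 CPM with DMSO, 271 to 308 CPM with i-BET858 and 289 to 343 CPM with i-BET151, with no call. The change of the i-BET858 effect was 0.45 ± 0.16 (adjusted p 0.0502, 0.00518 with the replicate block and 0.00118 with replicates 1 and 2 alone). It passed the threshold without DMSO 4 h replicate 3 (0.0206), i-BET151 4 h replicate 3 (0.0428), i-BET858 24 h replicate 3 (0.0438) or i-BET151 24 h replicate 3 (0.0451). The change of the i-BET151 effect was 0.35 (0.176, 0.0369 with the replicate block and 0.0131 with replicates 1 and 2 alone).

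**Figure D2:**
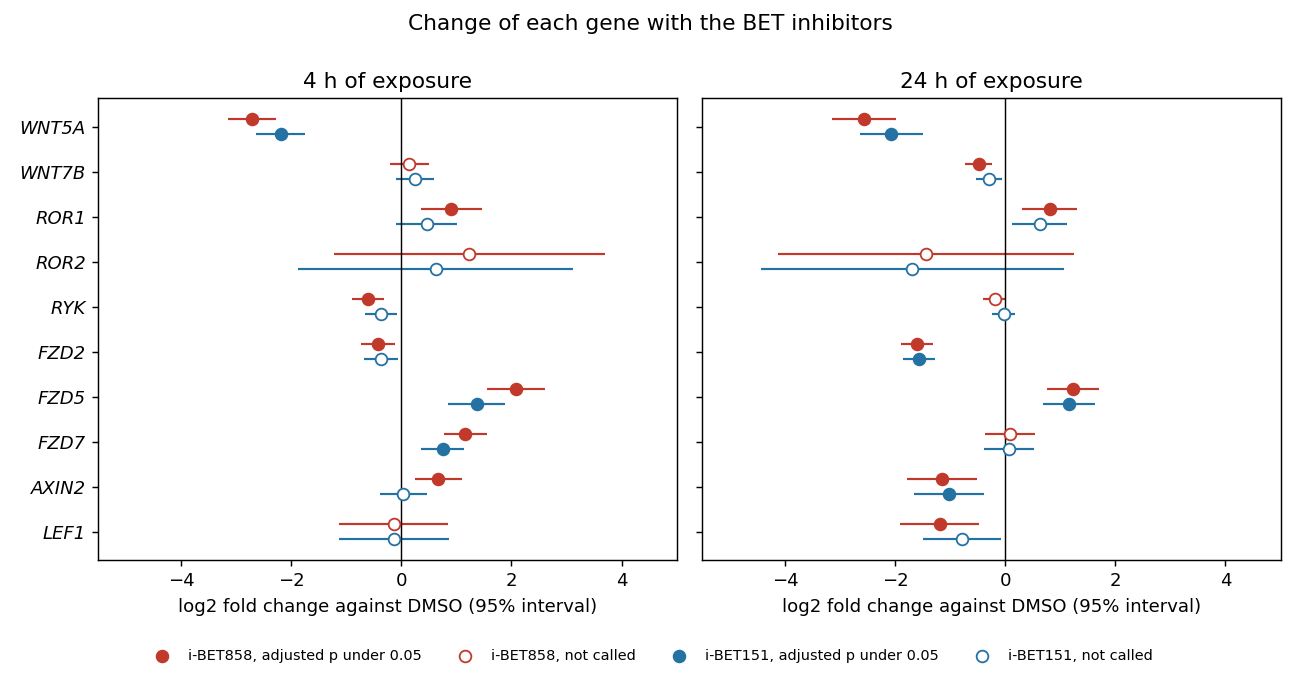
Log2 fold change against DMSO of the same time (horizontal axis) for each gene after 4 h (left) and 24 h (right), from edgeR with 3 libraries a group; bars are 95% intervals, filled points have an adjusted p under 0.05. WNT5A lies at −2.71 to −2.07 in all 4 comparisons and FZD5 at 1.16 to 2.08, while AXIN2 with i-BET858 goes from 0.67 at 4 h to −1.15 at 24 h.

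The 3 Frizzled members went in different directions. FZD2 (ENSG00000180340, chr17:44557484-44561262) was read at 24.4, 21.6 and 22.5 CPM with DMSO at 4 h, 16.2, 19.0 and 15.6 CPM with i-BET858 and 17.8, 17.4 and 17.97 CPM with i-BET151. All treated libraries lay below all DMSO libraries. The log2 fold changes were −0.43 ± 0.14 (adjusted p 0.0372) with i-BET858 and −0.37 ± 0.14 (0.100, and 0.0378 with the replicate block) with i-BET151. The call for i-BET858 was lost with 7 of the 9 libraries of that time left out singly: DMSO 4 h replicate 1 (0.128), 2 (0.0650) or 3 (0.0748), i-BET858 4 h replicate 1 (0.113) or 3 (0.0987), and i-BET151 4 h replicate 1 (0.0635) or 2 (0.0597). It was also lost without a filter on low counts (0.139), in a fit of only the groups compared (0.0753) and with replicates 1 and 2 alone (0.0760).

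The fall of FZD2 was larger at 24 h. The DMSO libraries held 36.5, 32.2 and 34.5 CPM, those of i-BET858 11.5, 11.7 and 11.8 CPM and those of i-BET151 13.5, 11.9 and 9.92 CPM. Every treated library was below every DMSO library. On the log2 scale the changes were −1.60 ± 0.13 (adjusted p 8.56e-06) and −1.57 ± 0.13 (1.74e-05). The effect changed from 4 to 24 h by −1.13 ± 0.18 (0.000214) with i-BET858 and by −1.18 ± 0.18 (0.000528) with i-BET151. FZD2 also stood higher with DMSO at 24 h than at 4 h, by 0.59 ± 0.13 on the log2 scale (adjusted p 0.104, with 0.0386% of all genes called, 0.0152 with the replicate block and 0.00196 with DESeq2), so the DMSO libraries enter into each change.

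FZD5 was read at 10.3, 12.8 and 19.2 CPM with DMSO at 4 h. With i-BET858 it was read at 44.1, 61.6 and 72.3 CPM and with i-BET151 at 34.7, 32.2 and 41.9 CPM. The 3 groups did not overlap, and the log2 fold changes against DMSO were 2.08 ± 0.24 (adjusted p 9.21e-05) and 1.37 ± 0.24 (0.00306). By 24 h DMSO libraries held 10.7, 10.1 and 8.34 CPM, and those of i-BET858 (23.1, 20.0 and 27.5 CPM) and of i-BET151 (16.9, 19.7 and 29.6 CPM) were all higher. On the log2 scale the rises were 1.23 ± 0.21 (adjusted p 0.000997) and 1.16 ± 0.21 (0.00201). The change of the i-BET858 effect from 4 to 24 h was −0.81 ± 0.34 (0.0875, 0.00814 with the replicate block, 0.0178 without a filter and 0.00122 with replicates 1 and 2 alone). It passed the threshold without DMSO 4 h replicate 3 (0.0200) or i-BET858 4 h replicate 1 (0.0426). For i-BET151 the change was −0.19 ± 0.34 (0.781, and 0.0301 with replicates 1 and 2 alone).

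FZD7 (ENSG00000155760, chr2:202033855-202038441) averaged 15.4 CPM per kb with DMSO and FZD6 13.8, and FZD7 was above FZD6 in 3 of 6 DMSO libraries, so they were not set apart. At 4 h it was read at 65.6, 61.3 and 88.2 CPM with DMSO, at 138, 165 and 176 CPM with i-BET858 and at 112, 103 and 148 CPM with i-BET151. Every treated library was above every DMSO library. The log2 fold changes were 1.16 ± 0.18 (adjusted p 0.000559) and 0.75 ± 0.18 (0.0148, but 0.0645 or 0.0641 without DMSO 4 h replicate 1 or 2). The ranges overlapped at 24 h, at 57.4 to 91.1 CPM with DMSO, 63.8 to 95.1 CPM with i-BET858 and 68.2 to 85.1 CPM with i-BET151. The log2 fold changes were 0.08 ± 0.21 and 0.07 ± 0.21, and the i-BET858 effect had changed by −1.03 ± 0.28 (adjusted p 0.0106). For i-BET151 the change was −0.66 ± 0.28 (0.132, 0.00185 with the replicate block, 0.0250 without a filter and 0.0134 with replicates 1 and 2 alone).

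Summed over the 10 Frizzled genes, the level per kb was 54.1 ± 2.93 CPM (SD, n = 3) with DMSO at 4 h, 116 ± 11.6 with i-BET858 and 85.4 ± 6.34 with i-BET151. At 24 h the sums were 54.3 ± 4.77, 67.9 ± 5.70 and 65.2 ± 3.14 CPM per kb. FZD7 held 28.7% ± 4.15 of the sum with DMSO at 4 h and 30.0% ± 0.91 with i-BET858. FZD2 fell from 11.2% ± 0.95 to 3.90% ± 0.47, and from 16.8% ± 1.40 to 4.56% ± 0.36 at 24 h. FZD5 went from 3.66% ± 1.00 to 7.22% ± 1.10 at 4 h and from 2.57% ± 0.50 to 4.90% ± 0.38 at 24 h. These shares are descriptions and were not tested.

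**Figure D3:**
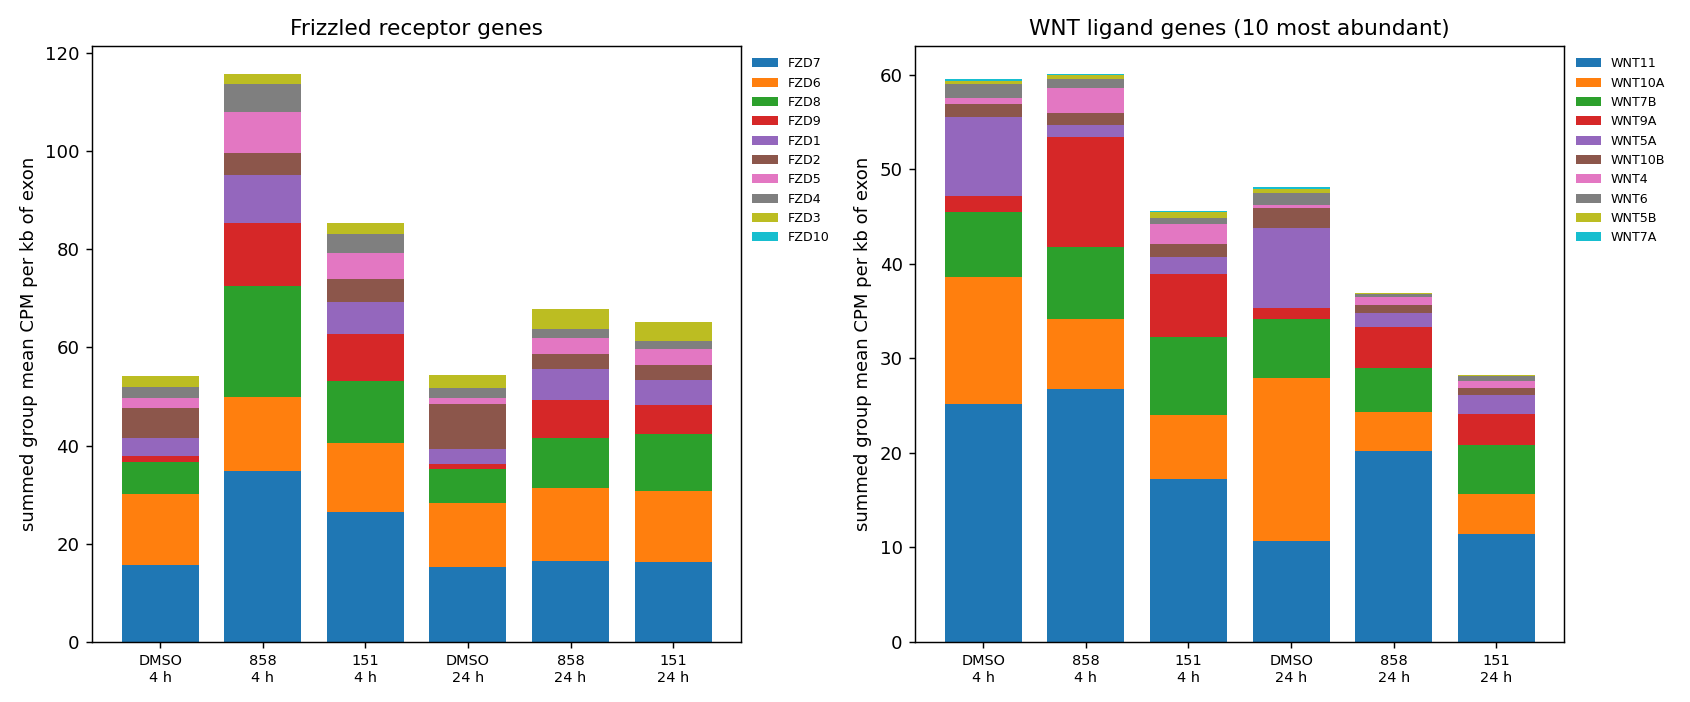
Group mean CPM per kb of exon (vertical axis, from 0), stacked by gene for the 10 Frizzled genes (left) and for the 10 most abundant of 19 WNT ligand genes (right), by condition. The Frizzled stack rises from 54.1 to 116 CPM per kb with i-BET858 at 4 h, and the WNT5A segment shrinks with both inhibitors at both times.

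AXIN2 and LEF1 are both transcribed in response to β-catenin. AXIN2 encodes a scaffold of the complex that degrades β-catenin and so a feedback inhibitor, and LEF1 one of the factors that β-catenin joins. AXIN2 (ENSG00000168646, chr17:65528563-65561648) shares 1316 of its 5197 exon bases with a same-strand gene (ENSG00000266076), and reads that fall on both are left out of such counting. At 4 h it was read at 5.99, 6.85 and 7.96 CPM with DMSO, 10.8, 12.5 and 9.77 CPM with i-BET858 and 6.46, 7.92 and 7.02 CPM with i-BET151. The i-BET858 libraries lay above all others, with a log2 fold change of 0.67 ± 0.19 (adjusted p 0.0205). The adjusted p was 0.0932, 0.0722 and 0.0778 without DMSO 4 h replicate 1, DMSO 4 h replicate 2 and i-BET858 4 h replicate 2. It was 0.0711 under total library size and 0.0766 without a filter on low counts. For i-BET151 its log2 fold change stood at 0.04 (95% interval −0.39 to 0.46).

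At 24 h AXIN2 was below DMSO with both inhibitors. The DMSO libraries held 6.69, 6.70 and 8.60 CPM, those of i-BET858 3.68, 3.30 and 3.22 CPM and those of i-BET151 4.68, 4.35 and 2.04 CPM. Neither inhibitor's libraries overlapped those of DMSO, and those of the inhibitors overlapped each other. Log2 fold changes were −1.15 ± 0.29 (adjusted p 0.00878) and −1.01 ± 0.29 (0.0202, and 0.0620 without DMSO 24 h replicate 3). The i-BET151 value leaned on replicate 3: log2 ratios to the DMSO library of the same number were −0.51, −0.62 and −2.08. Over the alternatives that fold change ran from −1.23 to −0.60. From 4 to 24 h the i-BET858 effect changed by −1.78 ± 0.35 (0.00105), the largest change of effect among the 9 members other than ROR2, whose errors exceed 1. For i-BET151 the change was −1.03 ± 0.35 (0.0582, 0.0383 without i-BET151 24 h replicate 1, and 0.0146 to 0.0457 with the replicate block, DESeq2, DESeq2 size factors, at least 10 counts in every library or replicates 1 and 2 alone).

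LEF1 (ENSG00000138795, chr4:108047545-108168956) was low, at 27 to 122 counts per library, and 279 of its exon bases lie opposite the antisense gene LEF1-AS1, from which it cannot be told apart if strand was not used. At 4 h its libraries ran from 1.47 to 2.89 CPM with DMSO, from 1.68 to 2.36 CPM with i-BET858 and from 0.937 to 3.43 CPM with i-BET151, all overlapping. At 24 h they held 2.27, 3.03 and 1.97 CPM with DMSO, 1.00, 1.36 and 0.906 CPM with i-BET858 and 1.51, 1.31 and 1.45 CPM with i-BET151. Both treated groups were below all DMSO libraries. On the log2 scale LEF1 changed by −1.19 ± 0.33 with i-BET858 (adjusted p 0.0135, and 0.0758 or 0.0555 without DMSO 24 h replicate 2 or i-BET858 24 h replicate 1) and −0.78 ± 0.32 with i-BET151 (0.0872, 0.0428 with at least 10 counts in every library and 0.00909 with replicates 1 and 2 alone).

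The 2 inhibitors were set against each other at the same concentration and time. In the main fits, which leave out the replicate number, none of the 20 differences between i-BET858 and i-BET151 (10 genes at 2 times) passed the adjusted threshold. Of all tested genes 0.971% did at 4 h and 0.210% at 24 h. At 4 h 4 members had an unadjusted p under 0.05 in edgeR. WNT5A stood lower with i-BET858 than with i-BET151 by 0.52 on the log2 scale (95% interval of the difference −0.97 to −0.07). FZD5 stood higher by 0.72 (0.20 to 1.24), FZD7 by 0.41 (0.02 to 0.80) and AXIN2 by 0.64 (0.21 to 1.06). Their adjusted p-values were 0.322, 0.216, 0.393 and 0.170. With the replicate block all 4 were called, with adjusted p-values of 0.0170, 0.00392, 0.0147 and 0.0320, and the share of all tested genes called rose to 9.63%. DESeq2 called AXIN2 alone (0.0454), and edgeR without a filter on low counts FZD5 alone (0.0073). Over all alternatives the 4 adjusted p-values lay between 0.0170 and 0.554 for WNT5A, 0.00392 and 0.515 for FZD5, 0.0147 and 0.722 for FZD7, and 0.0320 and 0.462 for AXIN2.

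After 24 h, the difference in WNT5A was −0.50 (−1.09 to 0.09, adjusted p 0.551, 0.0194 with the replicate block and 0.0269 with replicates 1 and 2 alone). For FZD5 it was 0.07 (−0.39 to 0.54) and for AXIN2 −0.13 (−0.78 to 0.51). No member had an unadjusted p under 0.05 at 24 h in edgeR. Whether the difference between the inhibitors itself changed with time was not tested.

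**Figure D4:**
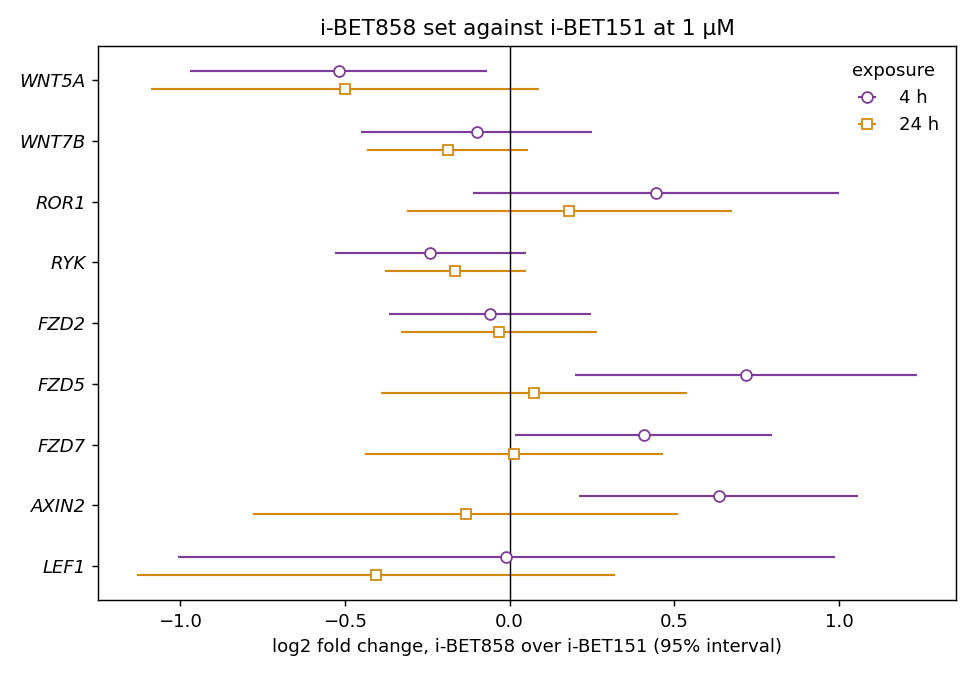
Log2 fold change of i-BET858 over i-BET151 at 1 µM (horizontal axis) after 4 h (circles) and 24 h (squares), with 95% intervals, 3 libraries a group; ROR2 is left out for its wide intervals. At 4 h the intervals of WNT5A, FZD5, FZD7 and AXIN2 leave out 0, and at 24 h every interval includes it.

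A list of 93 other WNT pathway genes was read in the same fits. At 4 h 78 of them were tested: 16 rose and 12 fell with i-BET858, and 9 rose and 6 fell with i-BET151. These are 35.9% and 19.2% of the list, near the 30.8% and 16.2% of all tested genes. With the replicate block 32 were called with i-BET151, and 32.7% of all tested genes. At 24 h 76 were tested, of which 20 rose and 18 fell with i-BET858 and 19 rose and 13 fell with i-BET151, or 50% and 42.1% of the list against 41.7% and 33.8% of all tested genes. Without i-BET151 4 h replicate 1 the i-BET151 calls at 4 h fell from 15 to 9, and without replicate 2 to 7 (9.60% and 9.44% of all tested genes). The median log2 fold change of the list was 0.07 and −0.01 at 4 h and −0.15 and −0.08 at 24 h.

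Of the 10 receptors and co-receptors outside the members, 9 were tested. With i-BET858 5 rose and 1 fell at either time, and with i-BET151 4 rose and none fell at 4 h, and 5 rose and 1 fell at 24 h. The called share was 66.7% with i-BET858 at either time (30.8% and 41.7% of all tested genes), and 44.4% and 66.7% with i-BET151 (16.2% and 33.8%). FZD9, FZD8 and FZD1 rose in all 4 comparisons. FZD9 had the steepest rise, from 3.03 ± 0.80 CPM (SD, n = 3) with DMSO at 4 h up to 29.7 ± 3.43 (i-BET858) and 22.5 ± 2.48 (i-BET151). Its fold changes were 9.81 and 7.40 at 4 h and 6.50 and 5.10 at 24 h. FZD8 rose 3.50-fold and 1.93-fold at 4 h and 1.48-fold and 1.68-fold at 24 h, and FZD1 2.68-fold and 1.77-fold, then 2.02-fold and 1.63-fold. The genes that fell were the co-receptors LRP6 at 4 h and LRP5 at 24 h, named after their values were seen.

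Of the 17 ligands outside the members, 9 were tested at 4 h and 10 at 24 h. At 4 h 2 rose and none fell with either inhibitor (22.2%, against 30.8% and 16.2% of all tested genes). At 24 h 3 rose and 3 fell with i-BET858 (60%, against 41.7%), and 2 rose and 2 fell with i-BET151 (40%, against 33.8%). WNT10A and WNT10B fell with both inhibitors at 24 h, WNT7A fell and WNT11 rose with i-BET858 there, and these 4 were named after their values were seen. WNT7A was low, at 0.37% ± 0.05 (SD, n = 3) of the summed ligand level per kb with DMSO at 24 h. WNT11 held 41.6% ± 7.82 of that sum with DMSO at 4 h, 22.1% ± 1.44 with DMSO at 24 h and 54.5% ± 5.63 with i-BET858 at 24 h. The DMSO libraries thus enter into the rise of WNT11. Between the DMSO times 1 of these 10 ligands was called, downwards (0.0386% of all tested genes). WNT9A and WNT4 rose in all 4 comparisons. WNT9A stood at 6.97 ± 0.47 CPM with DMSO at 4 h and reached 46.6 ± 8.41 CPM with i-BET858 and 26.8 ± 5.69 with i-BET151, or 6.70-fold and 3.84-fold. WNT4 rose 4.18-fold and 3.47-fold at 4 h and 2.64-fold and 2.28-fold at 24 h. Summed over all 19 ligand genes, the level per kb was 59.8 ± 7.34 CPM (SD, n = 3) with DMSO at 4 h, 60.5 ± 7.28 with i-BET858 and 45.7 ± 5.90 with i-BET151. At 24 h it was 48.5 ± 7.12, 37.1 ± 3.79 and 28.4 ± 4.04 CPM per kb, and these sums were not tested. Of the WNT secretion genes PORCN and WLS none was called, and WLS, which carries WNT proteins to the cell surface, was the more abundant (217 ± 53.6 CPM with DMSO at 4 h).

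Of the 14 genes listed as WNT inhibitors 9 were tested. The list holds secreted proteins and the membrane receptors KREMEN1 and KREMEN2. DKK2, which binds LRP co-receptors, fell in all 4 comparisons, from 6.05 ± 1.48 CPM with DMSO at 4 h down to 2.94 ± 0.27 (i-BET858) and 2.21 ± 1.04 (i-BET151). At 24 h it fell from 7.02 ± 0.88 CPM to 0.47 ± 0.20 and 0.32 ± 0.07. The 4 h calls of DKK2 had adjusted p-values of 0.0379 and 0.0143, and leaving out single libraries raised them to as much as 0.145 and 0.0684, past the threshold for 6 of 9 libraries with i-BET858 and for DMSO replicate 1 and i-BET151 replicate 2 with i-BET151. Those at 24 h stayed at or under 0.000189 and 0.000193 with each library left out. At 4 h 2 of the 9 inhibitors rose and 1 fell with i-BET858 (33.3%, against 30.8% of all tested genes), and none rose and 1 fell with i-BET151 (11.1%, against 16.2%). At 24 h 5 of the 9 fell with i-BET858 and 1 rose, and 4 fell and 2 rose with i-BET151, 66.7% of them in each case (41.7% and 33.8% of all tested genes).

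In the β-catenin pathway core (17 genes, all tested) 7 fell and 1 rose with i-BET858 at 4 h, and 3 fell and 8 rose at 24 h. With i-BET151 it was 3 down and none up at 4 h, and 2 down and 6 up at 24 h. Called shares were 47.1% and 64.7% with i-BET858 (30.8% and 41.7% of all tested genes) and 17.6% and 47.1% with i-BET151 (16.2% and 33.8%). BCL9, a co-activator that bridges β-catenin and its transcription machinery, fell in all 4 comparisons, 2.75-fold and 1.97-fold at 4 h and 1.56-fold and 1.34-fold at 24 h. Its i-BET151 call at 4 h (adjusted p 0.0216) was lost without DMSO 4 h replicate 3 (0.0773) or i-BET151 4 h replicate 1 (0.0830) or 2 (0.0752), and that at 24 h (0.00635) with all 18 libraries in 1 fit (0.143). Of the 3 TCF/LEF factors other than LEF1, 1 fell with either inhibitor at 4 h (33.3%, against 30.8% and 16.2% of all tested genes). At 24 h 1 fell with i-BET858 (33.3%, against 41.7%) and none with i-BET151 (0%, against 33.8%). The factor called at 24 h was not TCF7L2. TCF7L2 had the highest mean CPM of the 3. Per kb TCF7L1 held 43.5% ± 2.91 and TCF7L2 46.7% ± 0.68 of the level summed over all 4 TCF/LEF genes with DMSO at 4 h. With DMSO at 24 h these shares were 51.5% ± 2.23 and 40.3% ± 1.30, and with i-BET858 at 24 h TCF7L1 held 38.9% ± 1.72. TCF7L2 fell 1.60-fold and 1.79-fold at 4 h (adjusted p 0.0191 and 0.0117), and at 24 h its adjusted p was 0.118 and 0.0969 (0.0168 and 0.0137 with the replicate block, 0.00340 and 0.00728 with replicates 1 and 2 alone, and 0.0366 for i-BET858 under total library size). The 4 h calls of TCF7L2 were lost without DMSO 4 h replicate 3 (0.0759 and 0.0502), without replicate 1 or 2 of i-BET858 (0.0509 and 0.0703) and of i-BET151 (0.0578 and 0.0552).  With i-BET858 at 24 h its value was 0.0232 without i-BET858 24 h replicate 3.

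Beside AXIN2 and LEF1, 14 genes listed as β-catenin targets were all tested. LGR5, RNF43, ZNRF3, NOTUM and TCF7 stand in this list and in another role list, so any call of theirs counts in both. At 4 h 3 rose and 1 fell with either inhibitor, and at 24 h 1 rose and 4 fell with i-BET858 and 1 rose and 2 fell with i-BET151. At 4 h 28.6% were thus called with either inhibitor (30.8% and 16.2% of all tested genes), and at 24 h 35.7% and 21.4%, below the 41.7% and 33.8% of all tested genes. TNFRSF19 rose in all 4 comparisons, 1.78-fold and 1.76-fold at 4 h (adjusted p 0.0229 and 0.0414) and 3.45-fold and 4.08-fold at 24 h (0.000258 and 0.000189). Its calls at 4 h were lost without a filter on low counts (0.0609 and 0.0926) and, with i-BET858, under total library size (0.0521), and in 5 of 9 and 6 of 9 fits with a library left out, where the adjusted p reached 0.0904 and 0.134. The target that fell at 4 h was CCND1, and those that fell with i-BET858 at 24 h were LGR5, SP5, NOTUM and MYC, again named after their values were seen. The study itself reported MYC as unaltered by both inhibitors, and also by qRT-PCR in its cell lines. The MYC call was not followed singly through the alternatives. In R-spondin signalling LGR4, a receptor for R-spondins and the most abundant gene of its list, showed no call at 4 h and rose 1.46-fold and 1.71-fold at 24 h. Of the 8 genes of that list tested at 4 h 1 was called with i-BET858 and none with i-BET151 (12.5% and 0%, against 30.8% and 16.2% of all tested genes). Of the 5 tested at 24 h 1 rose and 1 fell with each (40%, against 41.7% and 33.8% of all tested genes). Of 12 planar cell polarity genes 2 rose and 1 fell with i-BET858 at 4 h and none was called with i-BET151. At 24 h 1 rose and 2 fell with i-BET858, and 2 rose and 2 fell with i-BET151. The called shares of 25.0% at either time with i-BET858 were below those of all tested genes (30.8% and 41.7%), and those with i-BET151 were 0% and 33.3% (16.2% and 33.8%). The gene of highest mean CPM, CELSR2 (373 ± 109 CPM with DMSO at 4 h), was not called.

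Finally, 12705 genes whose mean log2 CPM was 1 or more were ranked by how closely they followed WNT5A over the 18 libraries. The closest by Pearson's r of log2 CPM were ENSG00000226816 (0.97), TSKU (0.97), PWWP2B (0.97), MARCKS (0.97) and MTA2 (0.96). TSKU encodes a secreted leucine-rich proteoglycan, MARCKS a membrane-bound substrate of protein kinase C and MTA2 a subunit of the NuRD complex. With i-BET858 at 4 h their log2 fold changes were −3.08, −2.05, −1.47, −1.07 and −0.72, in the same order. Of the members FZD2 was the most similar to WNT5A (r = 0.76) and FZD5 the most opposed (r = −0.76). The libraries share their treatments and lie in separate DMSO and treated clusters for WNT5A, so r describes likeness of pattern only.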

How the data were processed

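The 18 libraries hold poly-A RNA from OVCAR-3 cultures. According to the study's methods, reads were aligned to GRCh38 with STAR and counted per gene by the same program. The deposited values are these raw counts, without normalization. The gene annotation release and the strand column are not given in the sources used here, which limits genes that overlap others. Symbols, positions and exon lengths came from GENCODE 44 (58472 of 58825 identifiers matched), and promoter windows from RefSeq on GRCh38.p14 (6 of 10 members matched, and WNT7B, FZD2, FZD7 and AXIN2 did not).

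The 9 libraries of each time point were fitted together with edgeR 4.0.16 in R 4.3.3 (TMM, its filter on low counts, quasi-likelihood test, Benjamini-Hochberg over all genes), and changes of an effect between times with all 18. Standard errors and 95% intervals came from the same fits. Values per library are CPM after TMM, per kb of exon where levels of different genes are compared.

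The members and lists were chosen with earlier results of these data known, and the alternatives for the pathway list after the data were seen. List genes were named if called in 1 direction with both inhibitors at both times (up to 4 a list), otherwise the most abundant of the list by mean CPM, and the 5 genes most like WNT5A by Pearson's r. Deviations from group means of same-numbered libraries correlated at 0.141 to 0.365 at 4 h and 0.161 to 0.352 at 24 h (other numbers −0.341 to 0.233 and −0.329 to 0.326). These ranges overlap, and the pattern mostly sets replicate 3 apart, so a pairing of replicates 1 and 2 is not shown. The main fits held the condition only, and the replicate number entered only in the replicate block. A deviation shared by replicate number therefore counts as spread between replicates in the main p-values. Replicates were labelled as biological, and p-values measure the spread between them. The alternatives were total library size, DESeq2 size factors, DESeq2 1.42.0, no filter, at least 10 counts in every library, the replicate block, only the groups compared, a fold change of at least 2, replicates 1 and 2 alone, all 18 libraries in 1 fit, and each library left out.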

Additional observations from a re-analysis of the deposited data

Results flagged for a closer look

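For some genes the effect of an inhibitor differed between 4 and 24 h by the test of the difference itself (edgeR, drug-by-time term, 18 libraries). With i-BET858, 4 of the 10 members changed in this fit, all towards lower values at 24 h, where 27.2% of all tested genes changed and 12.6% did so downwards. The log2 changes of effect were −0.59 for WNT7B, −1.13 for FZD2, −1.03 for FZD7 and −1.78 for AXIN2. That of WNT7B was lost without a filter on low counts (adjusted p 0.120), with replicates 1 and 2 alone (0.0765) and with several single libraries left out. With the replicate block the i-BET858 effect also changed for RYK, upwards (0.44, adjusted p 0.00518), and for FZD5, downwards (−0.85, 0.00814). With i-BET151 only FZD2 was called (−1.18), where 13.8% of all tested genes were, and with the replicate block 5 were (25.2% of all tested genes). Among the named list genes the i-BET858 effect changed for FZD8 (−1.20), DKK2 (−2.86), BCL9 (0.87), TNFRSF19 (1.01) and LGR4 (0.67), and the i-BET151 effect for DKK2 (−2.97), TNFRSF19 (1.23) and LGR4 (0.96). Whether the change of effect differs between the inhibitors was not tested. Groups of 3 were not searched for outlying libraries.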

How the results depend on the processing

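Of the 21 member values called against DMSO, 14 kept their call and direction under every alternative other than the required fold change of at least 2, which RYK with i-BET858 at 4 h and WNT7B with i-BET858 at 24 h then missed, leaving 12. Among these were all 4 of WNT5A (log2 −2.87 to −1.84 over the alternatives) and all 4 of FZD5 (0.77 to 2.36). Under total library size the median log2 fold change of all genes with i-BET858 at 4 h moved from 0.02 to −0.14, and AXIN2 lost its call there (0.0711). AXIN2 (0.0766) and FZD2 (0.139) at 4 h and LEF1 at 24 h (0.0755) lost theirs with i-BET858 without a filter, and FZD2 also in a fit of only the groups compared (0.0753) and with replicates 1 and 2 alone (0.0760).

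The counts of called members were 3 with i-BET858 at 4 h when a fold change of at least 2 was required, 6 with i-BET151 at 4 h under the replicate block and 5 with replicates 1 and 2 alone, and 7 with i-BET151 at 24 h with replicates 1 and 2 alone. The share of all tested genes called moved too, to 14.1%, 32.7%, 25.9% and 54.2%. Between the inhibitors they were 1 with DESeq2, 1 without a filter and 4 with the block at 4 h, and 1 with the block and 1 with replicates 1 and 2 alone at 24 h (2.08%, 1.60%, 9.63%, 4.37% and 7.29% of all genes). For the change of the i-BET151 effect they were 2 with DESeq2 size factors, 3 with DESeq2, 2 without a filter, 3 with at least 10 counts in every library, 5 with the block and 5 with replicates 1 and 2 alone (13.6%, 9.16%, 7.40%, 19.3%, 25.2% and 26.3% of all genes). Between the DMSO times they were 1 with DESeq2 and 1 with the block (0.510% and 2.07% of all genes), where edgeR called none (2 members, FZD2 and FZD5, had an unadjusted p under 0.05). The pathway list had 13, 6, 22 and 13 calls with a fold change of at least 2 (i-BET858 and i-BET151 at 4 h, then at 24 h, where 14.1%, 7.10%, 18.8% and 13.7% of all genes were called), 32 for i-BET151 at 4 h with the block (32.7%), and 25, 59 and 57 for i-BET151 at 4 h and both inhibitors at 24 h with replicates 1 and 2 alone (25.9%, 60.7% and 54.2%). The cause of these moves was not tested.

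With 1 library left out, counts of members ran from 4 to 7 (i-BET858) and 2 to 3 (i-BET151) at 4 h, 6 to 7 and 4 to 5 at 24 h, 0 to 0 between the inhibitors at either time and between the DMSO times, and 3 to 6 and 1 to 2 for the changes of effect. The shares of all tested genes called in the same fits ran from 23.2% to 33.7% and 9.44% to 18.3% at 4 h, 32.7% to 44.9% and 23.8% to 35.1% at 24 h, 0% to 0.726% and 0.00558% to 0.620% between the inhibitors, 0% to 0.0534% between the DMSO times, and 21.5% to 27.9% and 8.45% to 14.3% for the changes of effect. The count of 4 at 4 h came without DMSO replicate 1 or 2, and that of 2 for the change of the i-BET151 effect without i-BET151 replicate 1 of 4 h or of 24 h. For the pathway list the ranges were 21 to 31 and 7 to 17 at 4 h and 30 to 39 and 26 to 36 at 24 h, beside the same shares of all genes. The replicate block changed no other call of a member than those given beside the results.

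Signs turned only in values that were not called. Under total library size these were WNT7B with i-BET858 at 4 h (−0.014), AXIN2 with i-BET151 at 4 h (−0.019) and FZD7 with i-BET858 at 24 h (−0.0026). With replicates 1 and 2 alone they were ROR2 with i-BET858 at 4 h (−0.016), RYK with i-BET151 at 24 h (0.053) and the change of the WNT5A effect (−0.037 and −0.059). With 1 library left out, ranges that crossed 0 were, with i-BET858 at 4 h, LGR4 (−0.17 to 0.0096) and LEF1 (−0.38 to 0.066), and with i-BET151 at 4 h, AXIN2 (−0.056 to 0.15), LEF1 (−0.72 to 0.21) and ROR2 (−0.22 to 1.13). At 24 h they were FZD7 (−0.094 to 0.35 for i-BET858, −0.065 to 0.33 for i-BET151), RYK with i-BET151 (−0.072 to 0.039), and the differences between the inhibitors in FZD5 (−0.073 to 0.37) and AXIN2 (−0.40 to 0.095). The change of the WNT5A effect ran from −0.080 to 0.39 for i-BET858 and from −0.12 to 0.34 for i-BET151. ROR2 had the lowest counts of the members (0 to 29 per library) and LEF1 the next lowest (27 to 122). How far depth, rather than the spread between replicates, limits them was not tested.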
